A study of Mus musculus with 2 samples.

Results

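The matrix metalloproteinases (MMPs) and their endogenous inhibitors, the tissue inhibitors of metalloproteinases (TIMPs), were examined in white matter of mice that lack CD47. The group held 10 genes, 6 proteases (Mmp12, Mmp2, Mmp14, Mmp15, Mmp16 and Mmp17) and 4 inhibitors (Timp1, Timp2, Timp3 and Timp4), and its members were all probe sets that the platform annotation names for them. There were 24 such probe sets, 11 for 5 of the proteases and 13 for the 4 inhibitors, out of 45037 on the array. Mmp15 had none in that annotation and was not analysed here. The tissue was optic nerve together with optic tract, taken from male CD47 KO mice (CD47 null) aged 12 to 15 weeks and from male WT mice aged 13 to 15 weeks, with 1 array for each genotype. Each array carried RNA pooled from several mice. The description of the series gives 4 CD47 KO and 5 WT mice, and the labelling protocol gives 5 CD47 KO and 4 WT mice. No other genotype, treatment or agent was part of the comparison, which addresses what changes in white matter without CD47, the ligand of the inhibitory receptor SIRPα on microglia. With 1 pool per genotype there was no replicate, so that no difference below could be tested and none has an SD or a p-value.

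MMPs are zinc-dependent proteases that cut proteins of the extracellular matrix and of cell surfaces. They are made as inactive precursors, and some are secreted whereas the membrane-type enzymes stay on the cell. TIMPs bind the active site of the mature enzymes, and their balance with the proteases sets how much matrix is cut. In white matter these enzymes are known from the removal of matrix and myelin debris around lesions, from the growth of oligodendrocyte processes and from the opening of the blood-brain barrier.

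The values are MAS5 signals, brightness in arbitrary units on a linear scale, which the authors scaled on each array to a common mean. Signals of different probe sets depend on their own probes, so every ratio sets a probe set against itself on the other array. The words brightest and dim, the percentiles and the summed signals of marker lists describe signals on the array and are no comparison of RNA levels between genes. A floor at the median of all signals, 106.2, replaced lower signals before ratios of CD47 KO over WT were taken on the log2 scale. Where 1 array was under the floor, the ratio is given as "at least" that size. Of the 24 probe sets, 19 were above the floor on both arrays, 2 on 1 array and 3 on neither.

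Among the 9 genes measured, 3 inhibitors and 3 proteases were higher in CD47 KO white matter, where 46.8% of all genes were. The same share stands beside each count of list genes above 0 given below. Of the 4 inhibitors, Timp1 was 2.70-fold and Timp2 1.78-fold higher by the brightest probe set of each, while Timp4 was 1.10-fold higher and Timp3 1.12-fold lower. Brightness here is the mean log2 signal of both arrays. On the WT array alone another Timp2 probe set was brighter (6732 against 5856), and by that one Timp2 was 1.07-fold higher. Of the 5 proteases, Mmp12 was at least 2.01-fold higher, Mmp17 at least 1.98-fold lower and Mmp2 1.43-fold lower, while Mmp14 and Mmp16 were 1.13-fold and 1.02-fold higher. The median log2 ratio was 0.48 over the 4 inhibitors and 0.02 over the 5 proteases, beside -0.02 over all 12481 genes above the floor on at least 1 array. These medians take each gene at its brightest probe set. With each gene at the median of its probe sets, the median of the inhibitors was 0.33. Over all measured probe sets the median was 0.18 for the 12 of the inhibitors and 0.02 for the 9 of the proteases. Over 2-fold higher were 2 of the 9 genes (Timp1 and Mmp12), where 1.21% of all genes were, and over 2-fold lower was none, where 0.817% were. Mmp12 and Mmp17 lay on either side of the 2-fold line by a small margin, and both are bounds. Either way past 2-fold were 2.03% of all genes. Over 1.5-fold were 3 of the 9 genes higher, where 4.02% of all genes were, and 1 lower, where 4.69% were (8.71% either way). By probe sets, 2 of the 21 members' probe sets above the floor on at least 1 array were over 2-fold higher and none lower, where 1.06% and 0.754% of all 23874 were (1.82% either way). Over 1.5-fold, 4 of the 21 were higher and 1 lower, where 4.44% and 4.55% of all were (8.99% either way). The members were chosen with earlier results of these data known, so none of these counts shows an enrichment of the group.

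**Figure D1:**
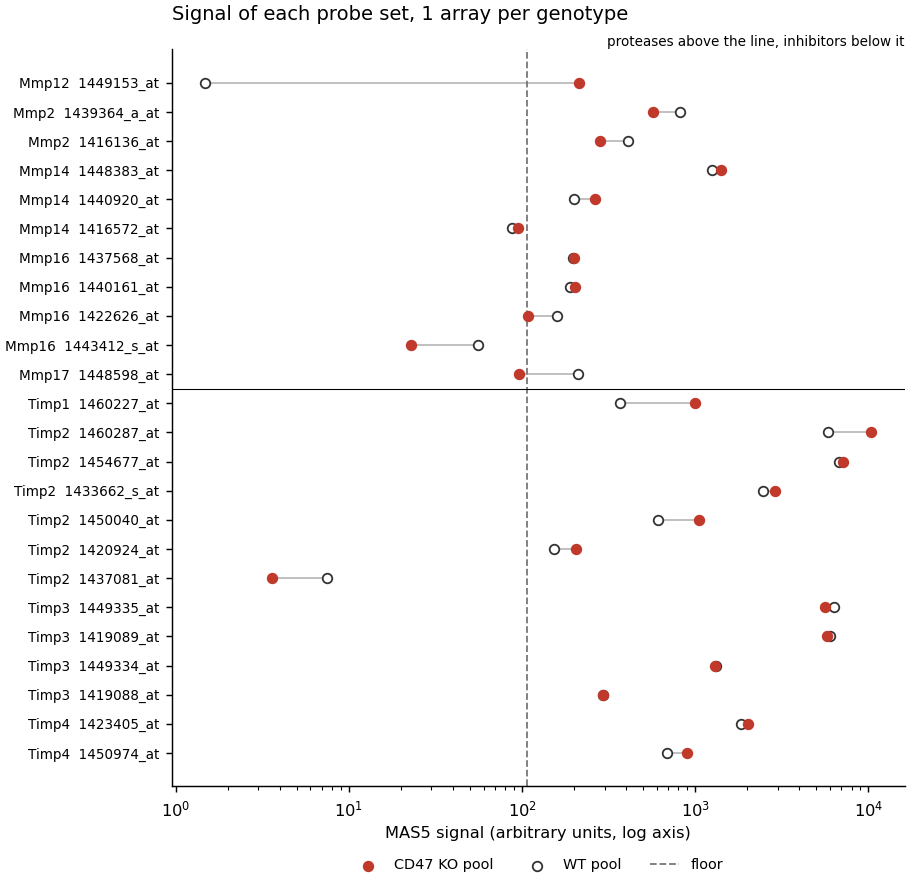
MAS5 signal (horizontal, arbitrary units, log axis) of the 24 probe sets, with 1 point for the CD47 KO pool (red) and 1 for the WT pool (open) and the floor of 106.2 as a dashed line. Among probe sets above the floor on both arrays, the widest gaps belong to Timp1 and to 2 probe sets of Timp2, and the WT point of Mmp12 lies far below the floor.

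**Figure D2:**
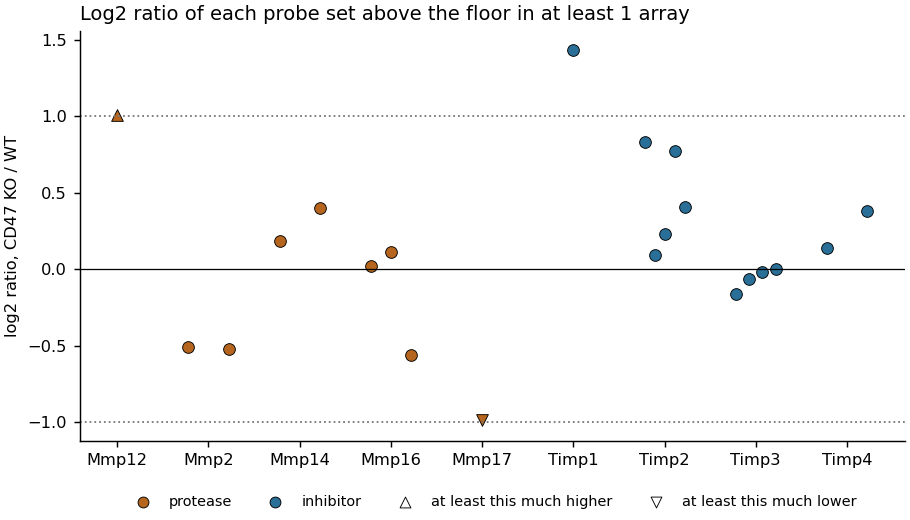
Log2 ratio, CD47 KO over WT (vertical), of the 21 probe sets above the floor on at least 1 array, by gene, with triangles for bounds and dotted lines at 2-fold. Both probe sets of Mmp2 lie at about the same height below 0, whereas the 5 of Timp2 spread from 0.09 to 0.83.

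The sole repeat measurement was that of several probe sets for 1 gene. Over 11670 pairs of probe sets in 4744 genes, all above the floor on both arrays, the log2 ratios of a pair differed with an SD of 0.36, and 95% of pairs differed by less than 0.75. For pairs whose dimmer probe set had a mean signal above 822 that limit was 0.47, and for pairs with a dimmer one under 195 it was 0.91. Variation between mice, or between hybridisations, is not part of these limits.

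Timp1 encodes a soluble inhibitor of most secreted MMPs, and in the brain it is known as a gene that reactive astrocytes switch on. Its single probe set had a signal of 995 in CD47 KO and 369 in WT, a log2 ratio of 1.43. Both signals were well above the floor, and 51 of 12481 genes (0.409%) had a higher log2 ratio. Its log2 ratio lay between 1.21 and 1.47 under the 9 alternative settings. Astrocyte markers had a median of 0.10 with 5 of 7 above 0, the highest Gfap (1.43-fold higher) and the brightest S100b (1.03-fold lower), and a sum of 117045 in CD47 KO and 106335 in WT. Their part in the value of Timp1 was not tested. In pooled tissue, fewer cells of a type cannot be told apart from less RNA per cell.

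Mmp12 encodes macrophage elastase, which cuts elastin and is made mainly by macrophages and microglia. Its single probe set had a signal of 213 in CD47 KO and 1.48 in WT. The CD47 KO signal was at percentile 62.2 of its array and the WT signal at percentile 0.617 of its own, where 278 probe sets were as low (371 on the CD47 KO array). Without a floor the log2 ratio was 7.17, and no other of the 45037 probe sets had one as high, nor any the reverse of it. The size of a ratio to so low a signal has little meaning, and with the floor Mmp12 was at least 2.01-fold higher. The bound moves with the floor. A floor at the 40th percentile gave a log2 ratio of 1.66, and one at the 60th gave 0.20. The study named Mmp12 among its genes of myelin repair in part from these same arrays, so its direction is not independent evidence. Markers of microglia had a median log2 ratio of 0.96 with 7 of 9 above 0, from Tmem119 (-0.52) to Itgax (2.65), and their summed signal was 48816 in CD47 KO and 28738 in WT. Of these, Itgax, Cd68 (5.11-fold), Cx3cr1 (2.55-fold) and C1qa (2.27-fold) were over 2-fold higher, and the brightest, Csf1r, was 1.38-fold higher. The part of these cells in the value of Mmp12 was not tested.

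The DNA before the start sites of Mmp12 and Timp1 is shown because these were the 2 members over 2-fold higher. The sequences are from RefSeq (build GRCm38.p6), in which 7 of the 10 genes had an entry (Mmp2, Mmp16 and Mmp17 had none), with 8 start sites in all. Each is the 250 bases before a start site, given 5′ to 3′ on the strand of the gene. Capitals mark the AP-1 motif TGANTCA and the ETS motif AGGAAG, searched on both strands. Mmp12 has 2 start sites in the table, at chr9:7344147-7344396 and chr9:7347124-7347373, both on the plus strand, and Timp1 has 1, at chrX:20869916-20870165 on the plus strand.
Mmp12, first start: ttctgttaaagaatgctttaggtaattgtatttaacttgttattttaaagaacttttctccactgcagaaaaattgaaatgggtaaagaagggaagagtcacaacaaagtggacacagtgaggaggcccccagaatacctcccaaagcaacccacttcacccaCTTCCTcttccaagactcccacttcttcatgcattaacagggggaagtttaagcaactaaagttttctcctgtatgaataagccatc
Mmp12, second start: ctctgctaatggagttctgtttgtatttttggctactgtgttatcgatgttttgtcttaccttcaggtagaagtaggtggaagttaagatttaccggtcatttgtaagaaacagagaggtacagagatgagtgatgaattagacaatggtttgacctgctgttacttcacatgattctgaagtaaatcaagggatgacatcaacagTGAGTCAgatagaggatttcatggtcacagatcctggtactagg
Timp1: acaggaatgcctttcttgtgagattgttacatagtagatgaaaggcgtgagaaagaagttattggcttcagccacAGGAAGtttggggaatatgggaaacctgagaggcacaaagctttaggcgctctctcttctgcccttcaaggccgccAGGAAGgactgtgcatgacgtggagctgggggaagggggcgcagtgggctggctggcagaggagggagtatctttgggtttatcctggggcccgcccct
The AP-1 letters were present in 1 of the 8 windows, that of the second Mmp12 start, from base -44 to base -38, and in 6.75% of 32851 windows of the same length over all genes. The ETS letters were present in 5 of the 8 windows, among them the first start of Mmp12 and, at 2 places, Timp1, and in 29.48% of all windows. The GC box GGGCGG was present in 5 windows, among them Timp1 from base -8 to base -3 but neither window of Mmp12, and in 32.74% of all. The TATA motif TATAAA and the GAS motif TTCNNNGAA were in none of the 8 windows, and in 12.37% and 7.02% of all. No 2 of these motifs overlapped in the windows printed. These are matches of letters and do not show binding.

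Timp2 encodes an inhibitor that, besides blocking MMPs, holds the precursor of MMP2 on the cell surface for its activation by MMP14. Each of its 5 probe sets above the floor was higher in CD47 KO, but not by the same amount. The 3 probe sets that the annotation ties to one design sequence had signals of 10402 in CD47 KO against 5856 in WT, 1047 against 613, and 204 against 154, which is 1.32-fold to 1.78-fold higher. The 2 tied to another design sequence had 7182 in CD47 KO against 6732 in WT, and 2885 against 2456, which is 1.07-fold to 1.17-fold higher. The log2 ratios of these sets did not overlap (0.40 to 0.83 and 0.09 to 0.23), a division that was made after the values were seen. The range over the 5 probe sets was 0.74, and 48 of 209 genes with at least 5 such probe sets (23.0%) had a range as wide, with a median range of 0.51. Those genes include dim probe sets, whereas the range of Timp2 lies between its 2 brightest. It is past the 0.47 within which 95% of pairs stayed when the dimmer probe set was above 822. Taken at the median of its probe sets, Timp2 had a log2 ratio of 0.40 in place of 0.83. The sixth probe set was under the floor on both arrays, with 3.60 in CD47 KO and 7.52 in WT. Where these probe sets lie on the transcript was not examined.

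Timp3, an inhibitor that stays bound to the matrix and also blocks ADAM17 and several ADAMTS proteases, was nearly equal on both arrays. Its 4 probe sets had signals of 5644 in CD47 KO against 6303 in WT, 5778 against 6039, 1307 against 1324, and 294 against 294. Their log2 ratios lay between -0.16 and 0.00, a narrower span than that of Timp2 or Mmp16. Timp4, the inhibitor known mostly from heart and brain, had 2031 in CD47 KO against 1848 in WT by the brighter probe set and 897 against 688 by the other, with log2 ratios of 0.14 and 0.38.

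Mmp2 encodes gelatinase A, a secreted enzyme of fibroblasts, meninges and vessels that cuts denatured collagen and collagen of basement membranes. It was lower in CD47 KO by both of its probe sets, with 573 against 817 in WT and 283 against 407 in WT. The log2 ratios were -0.51 and -0.52 and so differed by 0.01, and 846 of 12481 genes (6.78%) had a lower ratio than Mmp2. All 8 markers of meninges and fibroblasts were lower as well, with a median log2 ratio of -0.32. The lowest were Aldh1a2 (1.44-fold lower), Col1a1 (1.43-fold lower) and the brightest, Dcn (1.29-fold lower), and the summed signal of the 8 was 45942 in CD47 KO and 55343 in WT. Markers of endothelium and mural cells had a median of -0.40 with 2 of 7 above 0, from Kdr (1.72-fold lower) to Kcnj8 (1.38-fold higher), and a sum of 11745 in CD47 KO and 14700 in WT, with Pecam1 under the floor. The part of either kind of cell in the value of Mmp2 was not tested.

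Mmp14 encodes the membrane-type enzyme that activates the precursor of MMP2. Its brightest probe set had 1416 in CD47 KO against 1248 in WT and the next 263 against 199, with log2 ratios of 0.18 and 0.40. The third was under the floor on both arrays, with 95.2 in CD47 KO and 87.6 in WT. Mmp16, a related membrane-type enzyme, was dim, and its probe sets went both ways. The pair of brighter ones had 200.4 in CD47 KO against 197 in WT and 203 against 188 (log2 ratios 0.02 and 0.11). The third had 109 in CD47 KO against 160.3 in WT (log2 ratio -0.56), with the CD47 KO signal just above the floor. The fourth had 22.9 and 55.5, under the floor on both. Mmp17, a membrane-type enzyme held by a lipid anchor, had 96.4 in CD47 KO and 209.8 in WT by its single probe set. The CD47 KO signal was under the floor, so that Mmp17 was at least 1.98-fold lower. This bound too moves with the floor, and at the 60th percentile it shrank to a log2 ratio of -0.17.

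**Figure D3:**
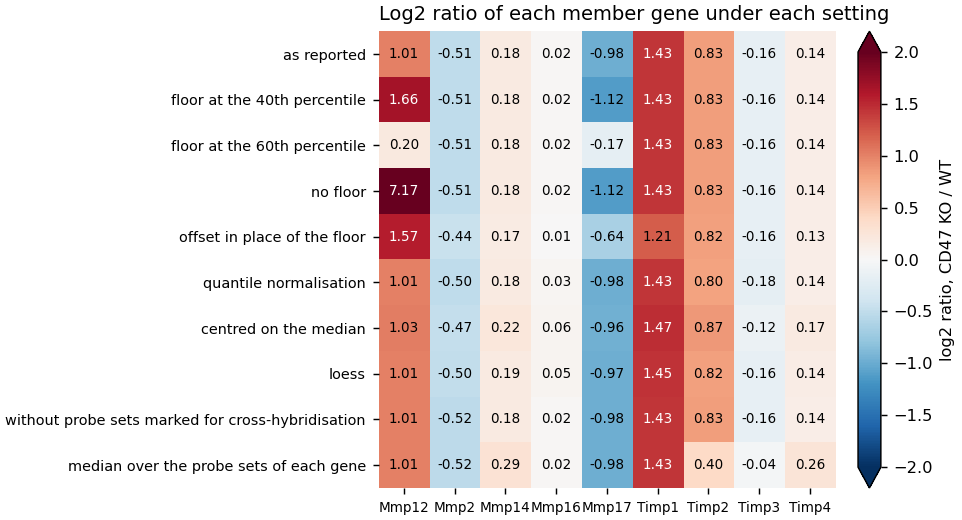
Log2 ratio, CD47 KO over WT, of the 9 member genes (columns) as reported and under 9 other settings (rows), with colour for sign and size. Each gene kept its sign under the settings shown, which the floor settings and the offset could not change. Mmp12 ran from 0.20 to 7.17 and Mmp17 from -1.12 to -0.17.

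Set against each other within these arrays, the log2 ratio of Mmp2 minus that of Timp2 was -1.34 and that of Mmp14 minus Timp2 was -0.65. For Mmp12, as a bound, minus Timp1 it was -0.43. The difference of the class medians, proteases minus inhibitors, was -0.46 by the brightest probe set of each gene. With each gene at the median of its probe sets it was -0.31. Over all measured probe sets the medians were 0.02 for proteases and 0.18 for inhibitors. The median of the inhibitors lies between Timp4 and Timp2, so the class difference also depends on the Timp2 probe set. The differences with Timp2 depend on its probe set and were -0.92 for Mmp2 and -0.11 for Mmp14 when a gene stood at the median of its probe sets. The Timp2 probe set that was brightest on the WT array had a log2 ratio of 0.09, under the 0.18 of Mmp14. The sign of the difference of Mmp14 and Timp2 thus depends on the probe set taken. The difference of Mmp12 and Timp1 has no settled sign, since it was 0.23 with the floor at the 40th percentile, 0.36 with an offset in place of the floor and 5.74 without a floor.

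**Figure D4:**
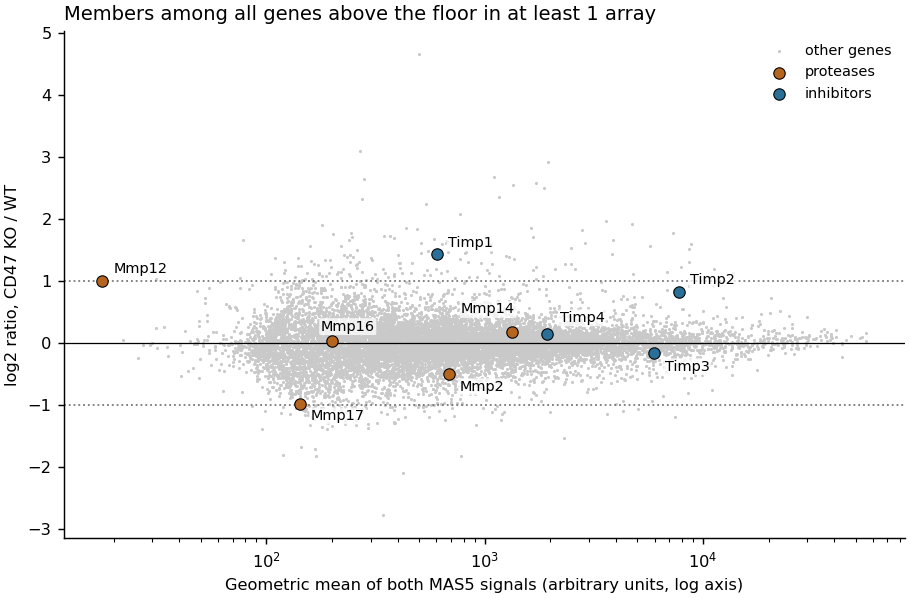
Log2 ratio, CD47 KO over WT (vertical), against the geometric mean of both signals (horizontal, arbitrary units, log axis) for 12481 genes (grey), with proteases in brown and inhibitors in blue. Timp1 and Timp2 lie above the bulk of genes of like brightness, Mmp2 lies below most of them, and Mmp12 lies at the dim end.

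Of 17 other MMP genes, 13 had a probe set, and each of these was taken at its brightest. By it, 4 were above the floor on at least 1 array, 3 with a log2 ratio above 0 and 1 below. Mmp23 was above the floor on both arrays, with 221 in CD47 KO and 196 in WT (1.13-fold higher). The others are bounds and leave the size open above the value given. Mmp8, the collagenase of neutrophils, was at least 1.22-fold and Mmp24 at least 1.20-fold higher, and Mmp7 at least 1.24-fold lower. The gelatinase Mmp9 was under the floor on both arrays by the brighter of its 2 probe sets, with 41.4 in CD47 KO and 85.8 in WT. So were Mmp3, Mmp13 and 6 more by their brightest. Mmp1a, Mmp1b, Mmp3, Mmp10, Mmp13 and Mmp20, which are known to lie in the same gene cluster as Mmp12, were among these, whereas Mmp7 and Mmp8 of that cluster reached above the floor on 1 array each.

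Of 13 measured ADAM and ADAMTS genes, relatives of the MMPs, several of which TIMP3 also restrains, 7 were above 0 and 6 below. Their median was 0.01 and none was over 1.5-fold. The largest were Adamts4 (1.34-fold higher), which cuts the proteoglycans of brain matrix, Adam17 (1.32-fold), which sheds TNF from cells, and Adamts5 (1.24-fold). The brightest, Adam10, had 5015 in CD47 KO and 4986 in WT. Of 13 genes for the activation, docking and clearance of MMPs, 7 were above 0, with a median of 0.04 and 2 known to be over 1.5-fold higher. These were Cd44, a hyaluronan receptor that docks MMPs on the cell surface (1.71-fold, 2498 in CD47 KO and 1464 in WT), and the integrin subunit gene Itgb3 (at least 1.53-fold). Plau, which encodes urokinase, had 109 in CD47 KO and 26.1 in WT, under the floor, by the brighter of its 2 probe sets. By that one it was at least 1.03-fold higher, and the size is not known. Plat, which encodes tissue plasminogen activator, was 1.47-fold higher, and the brightest, Itgav, 1.14-fold higher. Furin, the convertase that activates membrane-type MMPs, had a log2 ratio of -0.11.

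Among other inhibitors, 1 of 9 measured genes of protease inhibitors and matricellular proteins was over 2-fold higher. This was A2m, which encodes the broad protease trap alpha-2-macroglobulin, with 2034 in CD47 KO and 768 in WT (2.65-fold). The other genes of this list lay between log2 ratios of -0.46 and 0.29, and the median was -0.25, or 0.057 without probe sets marked for cross-hybridisation. Reck, a membrane-anchored inhibitor of MMPs, was 1.23-fold lower, Thbs2 1.37-fold lower and Spock3 1.36-fold lower, and the brightest, Sparc, was 1.18-fold higher. Genes of matrix proteins that MMPs cut had a median of -0.10 over 18 measured members, 8 above 0 and 10 below, and none of those above the floor on both arrays was over 1.5-fold. Hapln1, with 60.7 in CD47 KO and 113.6 in WT by its brightest probe set, was under the floor in CD47 KO, so that it has only a bound, at least 1.07-fold lower. Among the others, Cspg4 (1.49-fold higher) and Vcan (1.46-fold higher) encode proteoglycans of oligodendrocyte precursors, and Fbln1 (1.47-fold lower) and the brightest, Fn1 (1.25-fold lower), proteins of connective tissue. Eln, which encodes elastin, the classical substrate of MMP12, was 1.10-fold higher, with 405 in CD47 KO and 369 in WT.

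Timp1, Timp4 and Timp3 lie inside the genes of the synapsins Syn1, Syn2 and Syn3, which encode proteins of synaptic vesicles. The strands are opposite for Timp1 with Syn1 and for Timp4 with Syn2. The log2 ratios of the pairs went apart for both, with 1.43 for Timp1 and -0.60 for Syn1, and 0.14 for Timp4 and -0.75 for Syn2. Timp3 had -0.16 and Syn3 -0.01. Of the 4 measured probe sets of Syn2, 3 were below 0 and 1 had 0.06. Syn3 was close to the floor, with 116 in CD47 KO and 117 in WT by its brightest probe set. Another Syn3 probe set had 89.3 in CD47 KO, under the floor, and 124.8 in WT, which is at least 1.18-fold lower. All 7 neuronal markers were below 0, with a median of -1.0, the lowest Nefm (2.50-fold lower), and a sum of 7121 in CD47 KO and 13939 in WT. With each gene at the median of its probe sets, the median of this list was -0.77. Over 2-fold lower were also Slc17a6 (2.43-fold), Gad1 (2.17-fold) and Rbfox3 (341 in CD47 KO and 682 in WT), and the brightest, Snap25, was 1.97-fold lower. The part of neurons in the values of the synapsin genes was not tested.

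**Figure D5:**
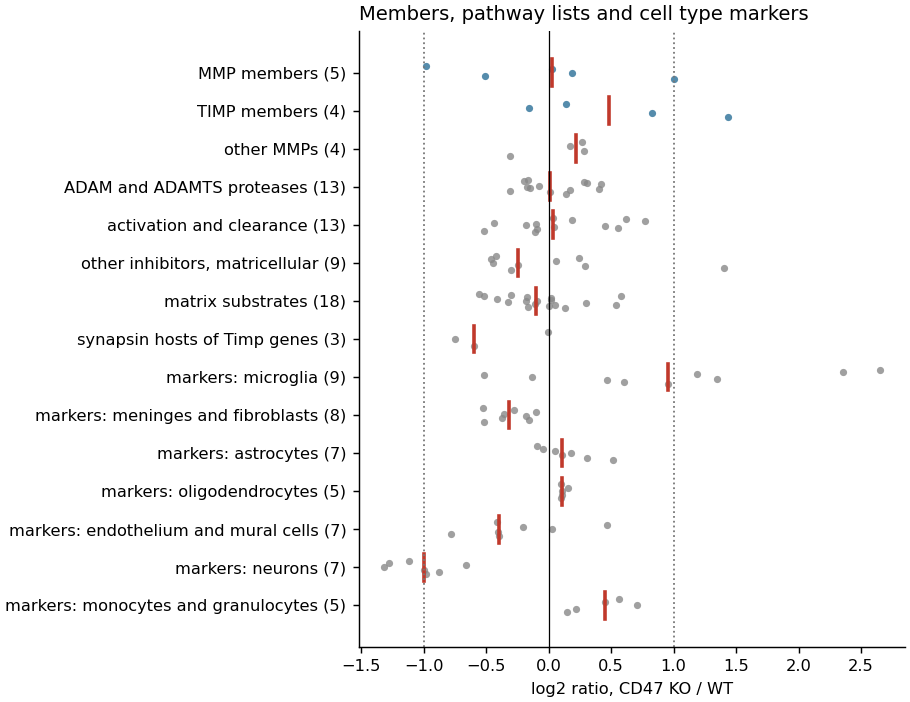
Log2 ratio, CD47 KO over WT (horizontal), of the measured genes of each list (points, number in brackets), a red bar at each median and dotted lines at 2-fold. The medians of the MMP and TIMP members are 0.02 and 0.48, and among the marker lists that of microglia (0.96) is the highest and that of neurons (-1.0) the lowest.

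The targeted gene was lower in CD47 KO by the 3 probe sets of Cd47 above the floor on both arrays, with 34.3% to 39.5% of the WT signal left. Whether they lie inside or outside the deletion was not examined. Myelin genes were far above the floor in both pools, with Mbp at 55271 in CD47 KO and 51510 in WT. Markers of monocytes and granulocytes had a median of 0.45 with 5 of 5 above 0, the largest Ngp (1.63-fold higher), and a sum of 3595 in CD47 KO and 2926 in WT. Ccr2 was under the floor in both by its brightest probe set. The part of these cells in the values of Mmp12 and Mmp8 was not tested. The 5 oligodendrocyte markers lay between 0.10 and 0.15, with a sum of 170579 in CD47 KO and 157009 in WT.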

How the data were processed

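Total RNA of optic nerve and tract, from CD47 KO and from WT mice, was pooled by genotype, labelled with a 3' in vitro transcription kit from 250 ng and hybridised to Affymetrix Mouse Genome 430 2.0 arrays, 1 per genotype. The authors processed the scans with Expression Console, and the submitters' processing notes name MAS5, with no version. The values the authors deposited are linear MAS5 signals, an intensity for every probe set. On each array their mean with 2% trimmed at each end was 500.003. Detection calls were not used here.

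From 45101 probe sets, 64 controls were set aside. Of the rest, 34945 had 1 gene symbol in the platform annotation, 932 several and 9160 none, and 34741 of those with 1 symbol were matched by gene identifier to the table of GRCm38.p6, used for names and neighbours. Signals under the 50th percentile of both arrays together were set to it, and log2 ratios of CD47 KO over WT were taken with Python 3.11.15 and pandas 2.3.3. A gene stood at its brightest probe set by mean log2 signal. The steps were tested on simulated data, in which the planted differences were all over 2-fold and in genes well above the floor. Bounds and smaller differences were not covered. With 1 array per genotype no test was made, the number of arrays limits the precision, and genes over 2-fold, the threshold of the study, were counted. A percentile of a signal is its rank on its own array.

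The members and lists were chosen with earlier results of these data known. Named were all members with every probe set, the 3 largest and the brightest gene of each pathway list and any past 2-fold, Cd47 and the synapsin genes. Of the marker lists, which follow the same rule, some are given by sum, range and median only. Mmp3, Mmp9, Mmp13, the other genes of the Mmp12 cluster, Reck, Furin, Plau, Hapln1, Eln, Tmem119, Pecam1, Ccr2 and Mbp were named outside the rule, after their values were seen. Alternatives were floors at the 40th and 60th percentile, no floor, an offset, quantile normalisation, median centring, loess (statsmodels 0.14.6), leaving out probe sets marked for cross-hybridisation, and the median over probe sets.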

Additional observations from a re-analysis of the deposited data

How the results depend on the processing

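A value was taken to have moved when it changed by more than 0.26 on the log2 scale, the SD of a single probe set that the disagreement of probe sets of 1 gene gives, and a count when it changed by more than 1.5 times. By this measure 192 comparisons of a count, median or difference with its value under an alternative setting stayed in place and 15 moved. The 9 members kept their sign under all 9 settings. This says little of direction, since another floor, no floor or an offset cannot turn the sign of a probe set's ratio. For Mmp12, Mmp17 and Timp1, with 1 probe set each, leaving out marked probe sets or taking the median cannot do so either. Of the 9 members, 1 was over 2-fold higher with the floor at the 60th percentile (Timp1) in place of 2, and 1 was over 2-fold lower (Mmp17) with the floor at the 40th percentile or without one in place of 0. The difference of Mmp2 and Timp2 was -0.92 and that of Mmp14 and Timp2 -0.11 by the median over probe sets. That of Mmp12 and Timp1 was 0.23 with the floor at the 40th percentile, -1.24 at the 60th, 5.74 without a floor and 0.36 with an offset. Over all genes, 252 were over 2-fold higher and 252 lower without a floor, and 173 were lower with it at the 40th percentile, 55 at the 60th and 35 with an offset, in place of 102. The median of the other inhibitors was 0.057 without probe sets marked for cross-hybridisation. Quantile normalisation, median centring and loess moved none of these. Replicates could not be left out, with 1 array per genotype. No paired analysis was possible because each genotype had 1 pooled sample.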
